A study of Mus musculus with 40 samples.

Results

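The Cyp4a genes encode the fatty acid ω-hydroxylases of mouse liver, and 6 of them were followed here across all dose groups. They are Cyp4a10 (ENSMUSG00000066072), Cyp4a14 (ENSMUSG00000028715), Cyp4a31 (ENSMUSG00000028712), Cyp4a32 (ENSMUSG00000063929), Cyp4a12a (ENSMUSG00000066071) and Cyp4a12b (ENSMUSG00000078597). The members were chosen by symbol, mapped to Ensembl identifiers, and are 6 of the 55359 gene identifiers counted. All 6 were among the 15373 genes that passed the filter on low counts. Hepatic RNA was sequenced from 40 male C57BL/6 mice, 5 in each of 8 groups. The mice received TCDD, the most potent of the dioxins and an activator of the aryl hydrocarbon receptor (AhR), or sesame oil vehicle alone. There were 7 TCDD doses, of which 4 were low (0.03, 0.1, 0.3 and 1 μg/kg) and the others 3, 10 and 30 μg/kg. Gavage was repeated every 4 days over 28 days, 7 administrations in all, from 30 to 58 days of age. The labels name no altered allele, every group shared the oil and the gavage, and only males were studied, so the levels describe male liver. Each library came from the RNA of frozen liver tissue, in which fewer cells of a type and less RNA per cell cannot be told apart.

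Cytochromes P450 of the Cyp4a subfamily add a hydroxyl group to the terminal (ω) carbon of fatty acids, with electrons passed on by cytochrome P450 oxidoreductase (Por). The hydroxylated chain can then be oxidised to a dicarboxylic acid and shortened in peroxisomes. Cyp4a10 and Cyp4a14 are classic targets of PPARα, the nuclear receptor that senses fatty acids and turns on their oxidation in fasting. Cyp4a12a and its close copy Cyp4a12b are expressed mainly in male liver, where growth hormone and androgen set their level, and Cyp4a12a also hydroxylates arachidonic acid. Cyp4a31 and Cyp4a32 are less studied copies close to Cyp4a10.

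The members lie in 1 cluster on chromosome 4. In the GENCODE M21 annotation of GRCm38, Cyp4a12a comes before Cyp4a12b, followed by Cyp4a14 on the opposite strand and then by Cyp4a10, Cyp4a31 and Cyp4a32 as direct neighbours. The submitters' processing notes name both GRCm39 and mm10, without saying which one was used for counting, so no positions of the genes are given. Since the copies are so alike, the sequences show which genes can be told apart by reads. Of the coding bases, 98.5% were identical between Cyp4a12a and Cyp4a12b. Identity with Cyp4a10 was 96.6% for Cyp4a31 and 97.2% for Cyp4a32, and it was 80.2% for Cyp4a12a and 76.1% for Cyp4a14. Bases 106 to 165 of the coding sequence are printed below for the Cyp4a10-like genes because they hold 6 of the positions that distinguish these 3 genes, which are in capitals.
Cyp4a10: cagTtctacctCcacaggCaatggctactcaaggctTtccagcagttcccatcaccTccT
Cyp4a31: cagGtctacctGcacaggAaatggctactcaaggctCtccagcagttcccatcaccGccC
Cyp4a32: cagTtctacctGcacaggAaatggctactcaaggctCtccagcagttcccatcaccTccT
Bases 624 to 683 are printed for the male-biased genes because they hold 4 of their 23 coding differences, again in capitals.
Cyp4a12a: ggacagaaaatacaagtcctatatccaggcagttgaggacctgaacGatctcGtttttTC
Cyp4a12b: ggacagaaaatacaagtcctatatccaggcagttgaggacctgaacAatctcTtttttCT

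A read of 150 bases placed at random on the annotated transcript would match another gene perfectly for 25.6% of positions in Cyp4a12a and 25.9% in Cyp4a12b. The share was 4.34% for Cyp4a10, 4.20% for Cyp4a31, 7.97% for Cyp4a32 and 0 for Cyp4a14. Over 300 bases, nearer to the span of a read pair, it was 5.28% for Cyp4a12a, 5.34% for Cyp4a12b and 0 for the others. Reads that mapped to several places were not assigned to a gene, so the levels of both Cyp4a12 genes are uncertain by the share of reads lost, and values for Cyp4a31 and Cyp4a32 could hold misplaced Cyp4a10 reads. The coding sequence around the cysteine that binds haem is printed because it shows how the genes group. In the following 66 bases, capitals mark differences from Cyp4a10, which was identical there to Cyp4a31 and Cyp4a32, while Cyp4a12a was identical to Cyp4a12b.
Cyp4a10: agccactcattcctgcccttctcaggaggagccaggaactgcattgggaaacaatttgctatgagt
Cyp4a12a: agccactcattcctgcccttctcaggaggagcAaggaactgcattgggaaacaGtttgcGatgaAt
Cyp4a14: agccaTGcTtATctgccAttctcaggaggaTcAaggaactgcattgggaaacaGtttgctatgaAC
Cyp4a12a differed from Cyp4a10 at 4 of these bases and Cyp4a14 at 11.

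In vehicle liver, 3 genes made up most of the Cyp4a transcripts. Per exon length, the level was 271 ± 156 RPKM (CPM divided by the joint length of a gene's annotated exons in kilobases, SD, n = 5) for Cyp4a14. It was 229 ± 76.7 RPKM for Cyp4a10 and 152 ± 56.8 RPKM for Cyp4a12a. Cyp4a12b stood at 50.5 ± 27.3 RPKM, Cyp4a32 at 28.3 ± 6.54 RPKM and Cyp4a31, the least abundant, at 3.98 ± 1.41 RPKM. Exons of Cyp4a32 cover 1536 bases and its coding sequence 1530. Its annotation thus holds almost no UTR, which makes its RPKM uncertain. All further levels of single genes are in CPM, a gene's share of the reads counted in its library, with library sizes scaled by edgeR's TMM factors.

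**Figure D1:**
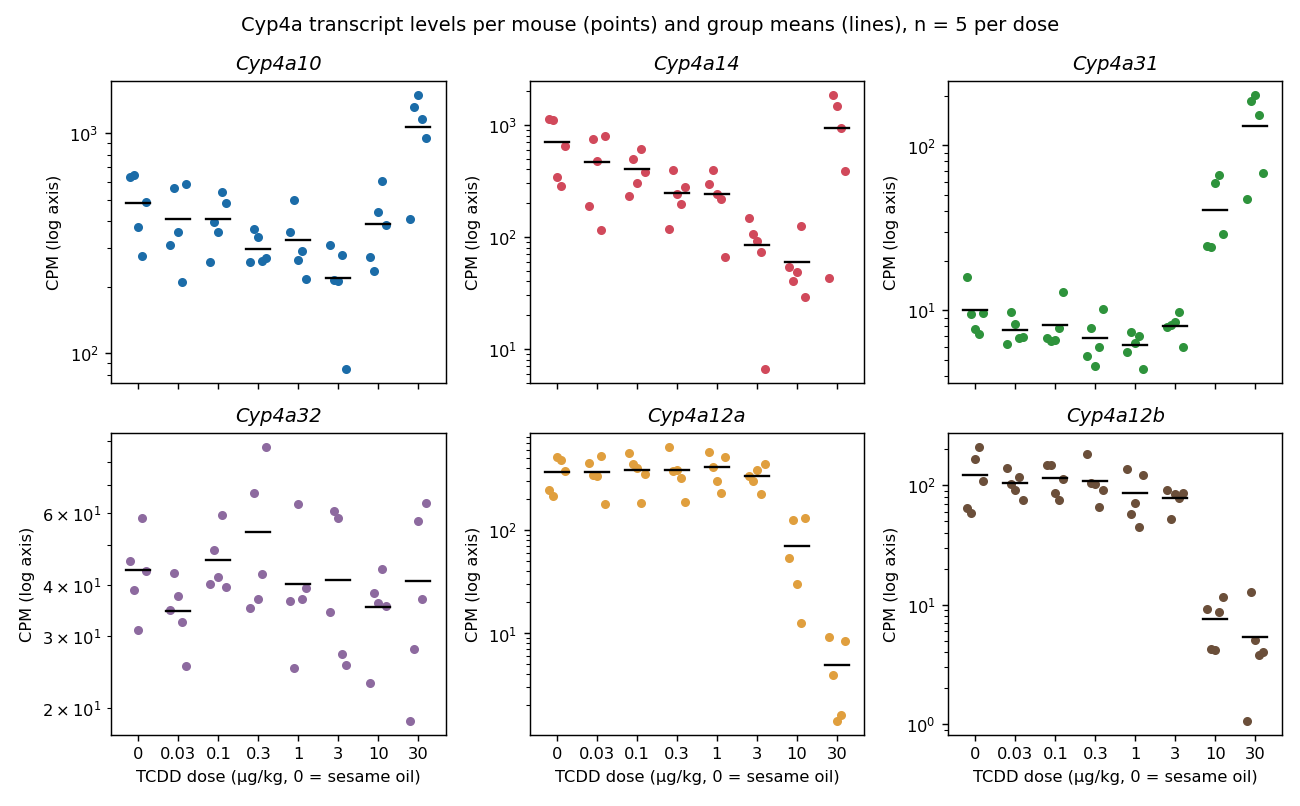
Hepatic levels of the 6 Cyp4a genes in CPM on log axes (vertical) against TCDD dose in μg/kg (horizontal, 0 is sesame oil), with 1 point per mouse and a line at the mean of the 5 mice of a dose. Cyp4a12a and Cyp4a12b dropped below all vehicle mice at 10 and 30 μg/kg, Cyp4a31 rose above all of them at both doses, Cyp4a14 lay below them at 3 and 10 μg/kg only, and Cyp4a32 overlapped with vehicle at every dose.

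Each dose was compared with vehicle to find where in the dose range the members responded. A gene was called where edgeR's quasi-likelihood test gave a Benjamini-Hochberg adjusted p under 0.05, with a change of 1.5-fold or more. All doses were compared with the same 5 vehicle mice. At 3 μg/kg, 2 of the 6 members were called, both lower, against 6.75% of all tested genes called in either direction, 4.53% higher and 2.22% lower. At 10 μg/kg, 4 were called, 1 higher and 3 lower, against 21.8% of all genes, of which 13.6% were higher and 8.13% lower. At 30 μg/kg, 4 were again called, 2 higher and 2 lower, against 42.1% of all genes, with 23.2% higher and 18.9% lower. No member was called at 0.03, 0.1, 0.3 or 1 μg/kg, where 0.0195%, 0.0976%, 0.468% and 2.78% of all genes were called in either direction, of which genes called higher were 0.0846% at 0.1 μg/kg and 2.15% at 1 μg/kg. At an unadjusted p under 0.05, edgeR gave 0, 0, 2 and 2 members at these doses, against 2.56%, 4.33%, 7.33% and 15.1% of all genes, and DESeq2 and limma called 0 at each.

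Cyp4a14, the strongest PPARα-responsive hydroxylase of the family, went down and came back up over the dose range. The vehicle mice had 1132, 1109.6, 343, 287 and 651 CPM. The 3 μg/kg mice had 146, 106, 92.5, 72.5 and 6.60 CPM. All 5 mice lay below the lowest vehicle mouse, and the mouse at 6.60 CPM lay far below the other 4. The fold change was 8.31-fold lower (log2 -3.06 ± 0.67 SE, edgeR adjusted p = 0.0019). In the 10 μg/kg group the levels were 53.4, 40.0, 48.2, 125 and 28.8 CPM, again all below vehicle. Cyp4a14 was 11.9-fold lower there (log2 -3.58 ± 0.69 SE, edgeR adjusted p = 8.7e-05). The 30 μg/kg mice read 43.1, 1856, 1464, 929.7 and 385 CPM. The group overlapped with vehicle, with 1 mouse below every vehicle mouse and 2 mice above every one. The difference from vehicle did not pass (log2 0.41, 95% interval -0.81 to 1.63, edgeR adjusted p = 0.60). From 10 to 30 μg/kg Cyp4a14 rose 15.8-fold (log2 3.99 ± 0.70 SE, edgeR adjusted p = 2.6e-05). Below 3 μg/kg the group means were 463, 403, 246 and 243 CPM at 0.03, 0.1, 0.3 and 1 μg/kg, with 704 in vehicle. The differences at 0.3 and 1 μg/kg were -1.52 ± 0.63 and -1.53 ± 0.63 on the log2 scale and did not pass (edgeR adjusted p = 0.55 and 0.21).

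Cyp4a10, the other PPARα-induced hydroxylase, showed a shallower dip and was called higher than vehicle at 30 μg/kg. Vehicle livers had 634, 647, 373, 276 and 489 CPM. Livers of the 3 μg/kg group had 310.2, 215, 214, 279 and 84.9 CPM. All 5 were below the vehicle mean, but the ranges overlapped. The level was 2.19-fold lower (log2 -1.13 ± 0.32 SE, edgeR adjusted p = 0.016). Without the mouse at 84.9 CPM, which also had the lowest Cyp4a14, the fall was 0.93 on the log2 scale and did not pass (edgeR adjusted p = 0.063). The call was lost by a small margin without vehicle replicate 1 (log2 -1.02, edgeR adjusted p = 0.0504) or vehicle replicate 2 (log2 -1.01, edgeR adjusted p = 0.0509). In the 10 μg/kg group, Cyp4a10 read 275, 238, 441, 609.7 and 382 CPM and was not different from vehicle by the test (log2 -0.31, 95% interval -0.93 to 0.30, edgeR adjusted p = 0.48). In the 30 μg/kg group the values were 409, 1322, 1496, 1167 and 951 CPM. Of the 5 mice, 4 exceeded every vehicle mouse and the other lay inside their range. Cyp4a10 was 2.21-fold higher (log2 1.14 ± 0.32 SE, edgeR adjusted p = 0.0024). The step from 10 to 30 μg/kg was 2.75-fold (log2 1.46 ± 0.32 SE, edgeR adjusted p = 0.00049).

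Cyp4a31, the Cyp4a10-like gene with the lowest level in vehicle, was the member with the largest rise. The vehicle mice had 16.0, 9.46, 7.70, 7.14 and 9.60 CPM. From 0.03 to 3 μg/kg the mice lay between 4.40 and 12.8 CPM. The 10 μg/kg mice had 24.6, 24.3, 59.4, 65.8 and 29.0 CPM, all above the highest vehicle mouse. The rise was 4.04-fold (log2 2.01 ± 0.32 SE, edgeR adjusted p = 3.9e-06). Cyp4a31 in the 30 μg/kg mice was at 47.4, 187, 203, 153 and 68.0 CPM. Cyp4a31 was 13.1-fold above vehicle (log2 3.71 ± 0.33 SE, edgeR adjusted p = 4.8e-12) and 3.25-fold above the 10 μg/kg group (log2 1.70 ± 0.30 SE, edgeR adjusted p = 3.0e-05). In raw counts this was 1025 to 5329 reads per library at 30 μg/kg, against 102 to 322 in vehicle.

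Cyp4a32, the neighbour of Cyp4a31, was not called at any dose. In vehicle it read 45.7, 38.8, 31, 58.3 and 43.3 CPM. The 30 μg/kg mice had 18.6, 28.0, 57.2, 37.0 and 63.4 CPM, on both sides of the vehicle range. The log2 difference was -0.09, with a 95% interval from -0.64 to 0.46 (edgeR adjusted p = 0.81). The sign of this difference turned positive with scaling to total counts (log2 0.41). The difference at 10 μg/kg was -0.30 (95% interval -0.85 to 0.25, edgeR adjusted p = 0.46). In a RefSeq promoter window of Cyp4a32, 250 bases before to 50 after the start (GRCm38.p6, chr4:115600688-115600987, plus strand), neither GCGTG, the core of the dioxin response element, nor direct repeat 1, the paired AGGTCA site bound by PPARα, was found on either strand. AGGTCA alone and TTCNNNGAA, the STAT5 motif, were not found either. Of 32851 such promoters, 32.4%, 0.0396%, 16.3% and 8.30% hold these motifs, and AGGTCA is contained in the direct repeat. No other member had an entry in that table.

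Cyp4a12a, the male-biased arachidonic acid hydroxylase, overlapped with vehicle up to 3 μg/kg and was far lower above that dose. Vehicle mice had 247, 214, 519, 488 and 377 CPM. The group means from 0.03 to 3 μg/kg were between 338 and 410.0 CPM. The 10 μg/kg mice had 54.2, 127, 30.4, 12.5 and 132 CPM. Every one was below the lowest vehicle mouse, with a 10.6-fold range within the group. The level was 5.17-fold lower (log2 -2.37 ± 0.47 SE, edgeR adjusted p = 0.00013). In the 30 μg/kg group 9.30, 3.95, 1.41, 1.63 and 8.43 CPM remained, from 37 to 201 reads per library. Cyp4a12a was 75.0-fold below vehicle (log2 -6.23 ± 0.57 SE, edgeR adjusted p = 7.6e-12) and 14.5-fold below the 10 μg/kg group (log2 -3.86 ± 0.51 SE, edgeR adjusted p = 3.5e-07).

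Cyp4a12b, its near-identical copy, reached its low level already at 10 μg/kg. The vehicle mice had 64.1, 58.1, 164, 209.7 and 108 CPM. The 3 μg/kg mice had 90.6, 52.6, 83.9, 77.6 and 85.6 CPM, which overlapped with vehicle (log2 -0.63 ± 0.38 SE, edgeR adjusted p = 0.34). Values at 10 μg/kg were 9.21, 4.24, 4.22, 8.65 and 11.7 CPM. The fall from vehicle was 15.9-fold (log2 -3.99 ± 0.43 SE, edgeR adjusted p = 3.1e-09), and it was 10.3-fold from 3 to 10 μg/kg (log2 -3.36 ± 0.42 SE, edgeR adjusted p = 8.8e-07). In the 30 μg/kg group 1.06, 12.7, 5.07, 3.77 and 4.05 CPM were left, 22.5-fold below vehicle (log2 -4.49 ± 0.44 SE, edgeR adjusted p = 5.0e-11). Without replicate 2 of that group, at 12.7 CPM, the log2 difference was -5.12. Between 10 and 30 μg/kg no further difference passed (log2 -0.50, 95% interval -1.31 to 0.30, edgeR adjusted p = 0.38).

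**Figure D2:**
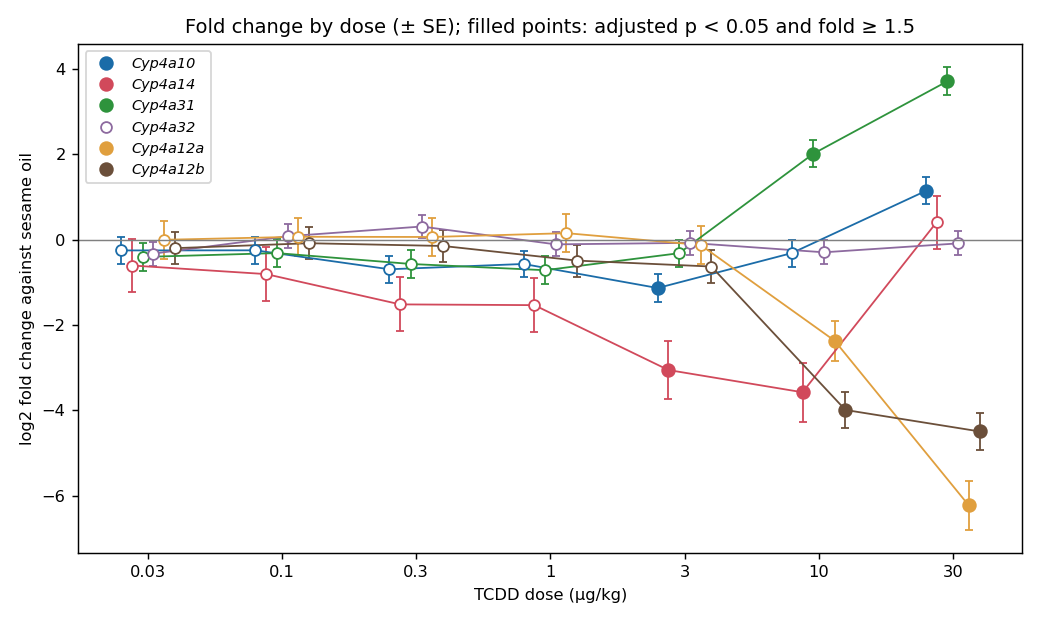
Log2 fold change of each member against vehicle (vertical, ± SE from the edgeR fit) at each TCDD dose in μg/kg (horizontal), with called points filled. Cyp4a14 ran down to -3.58 at 10 μg/kg and returned to 0.41 at 30 μg/kg, Cyp4a31 rose to 3.71, Cyp4a12a and Cyp4a12b fell to -6.23 and -4.49, and Cyp4a32 had no filled point.

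The steps between neighbouring doses show where the changes fell. From 3 to 10 μg/kg, 3 members were called, Cyp4a31 higher and Cyp4a12a and Cyp4a12b lower, against 6.77% of all genes, with 4.43% higher and 2.34% lower. From 10 to 30 μg/kg, 4 members were called, Cyp4a10, Cyp4a14 and Cyp4a31 higher and Cyp4a12a lower, against 21.1% of all genes, with 10.6% in each direction. No member was called in any step from 0.03 up to 3 μg/kg by edgeR or DESeq2, and 1 had an unadjusted p under 0.05, Cyp4a14 from 1 to 3 μg/kg, where 5.55% of all genes did. Over all genes, 0.039%, 0.0455%, 0.241% and 0.0585% were called in the steps up to 0.1, 0.3, 1 and 3 μg/kg, and those called higher were 0.039%, 0.0455%, 0.228% and 0.0585%. A linear slope over the 8 ordered dose groups passed, at an adjusted p under 0.05 and with no fold threshold, for 3 members, against 57.7% of all genes, 31.5% upward and 26.1% downward. Per step, Cyp4a31 rose by 0.52 on the log2 scale (edgeR adjusted p = 5.9e-09), Cyp4a12b fell by 0.52 (edgeR adjusted p = 1.6e-05) and Cyp4a12a fell by 0.42 (edgeR adjusted p = 0.0039). The slope did not pass for Cyp4a10 (0.10 per step, edgeR adjusted p = 0.055), but it passed with total-count scaling (0.17 per step, 0.0023) and against log10 dose without vehicle (0.32 per 10-fold dose, 0.013). It was -0.04 for Cyp4a14 (edgeR adjusted p = 0.70) and 0.04 with total-count scaling (0.67).

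Fits were repeated within each of the 2 runs of the numbers in the sample titles. In the first run 3 members were called at 10 μg/kg and 3 at 30 μg/kg, and in the second run 4 and 4. At 3 μg/kg neither member was called in either run, with log2 differences of -2.92 and -3.56 for Cyp4a14 (edgeR adjusted p = 0.088 and 0.060) and -1.18 and -1.07 for Cyp4a10 (0.10 and 0.25). At 10 μg/kg Cyp4a31 differed by 1.12 in the first run (edgeR adjusted p = 0.072) and by 2.61 in the second (0.00063). At 30 μg/kg Cyp4a10 differed by 0.64 (edgeR adjusted p = 0.24) and 1.62 (0.0057). The other calls at 10 and 30 μg/kg were made in both runs, and with the run as a covariate all calls held.

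The dose groups were ordered by mean log2 CPM, and neighbours were tested by exact 2-sided permutation adjusted over the 7 neighbours of a gene. The order was taken from the same values as the tests. For Cyp4a12a the 3 μg/kg group differed from the 10 μg/kg group and that from the 30 μg/kg group (exact p = 0.0079 each, the smallest that 5 against 5 allows, adjusted p = 0.028). For Cyp4a12b, the gap between the 3 and 10 μg/kg groups also had an exact p = 0.0079, but an adjusted p = 0.056. For Cyp4a31 the 10 μg/kg group came above vehicle with an exact p = 0.0079 and an adjusted p = 0.056, and the 30 μg/kg group above it with an exact p = 0.032 (adjusted p = 0.11). Where only 1 gap of a gene is separated, the adjusted p cannot fall below 0.056 with 5 mice per group. Such a gap could not pass however far apart the groups lay, so these 2 adjusted values of 0.056 decide nothing. No neighbours in the order of Cyp4a10, Cyp4a14 or Cyp4a32 differed beyond their spread (smallest exact adjusted p = 0.28, 0.33 and 0.99).

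The make-up of the Cyp4a transcripts was described by the summed RPKM of the 6 members and the share of each in it. The summed level was 735 ± 149 RPKM in vehicle (SD, n = 5), 479 ± 78.4 RPKM at 0.3 μg/kg, 339.6 ± 50.6 RPKM at 3 μg/kg and 279 ± 78.7 RPKM at 10 μg/kg. The 30 μg/kg group had 949.9 ± 503 RPKM, with single mice from 246 to 1440.1 RPKM. Cyp4a10 made up 30.5 ± 4.83% of the sum in vehicle and 30.3 ± 10.8% at 3 μg/kg, and then 64.8 ± 8.33% at 10 μg/kg. The share of Cyp4a12a was 22.7 ± 12.2% in vehicle, 42.0 ± 13.7% at 3 μg/kg and 0.460 ± 0.645% at 30 μg/kg. Cyp4a14 held 34.6 ± 14.1% in vehicle, 7.90 ± 3.20% at 10 μg/kg and 30.9 ± 16.8% at 30 μg/kg. Cyp4a31, at 0.534 ± 0.105% in vehicle, made up 5.62 ± 1.72% in the 10 μg/kg group and 5.76 ± 1.34% in the 30 μg/kg group.

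**Figure D3:**
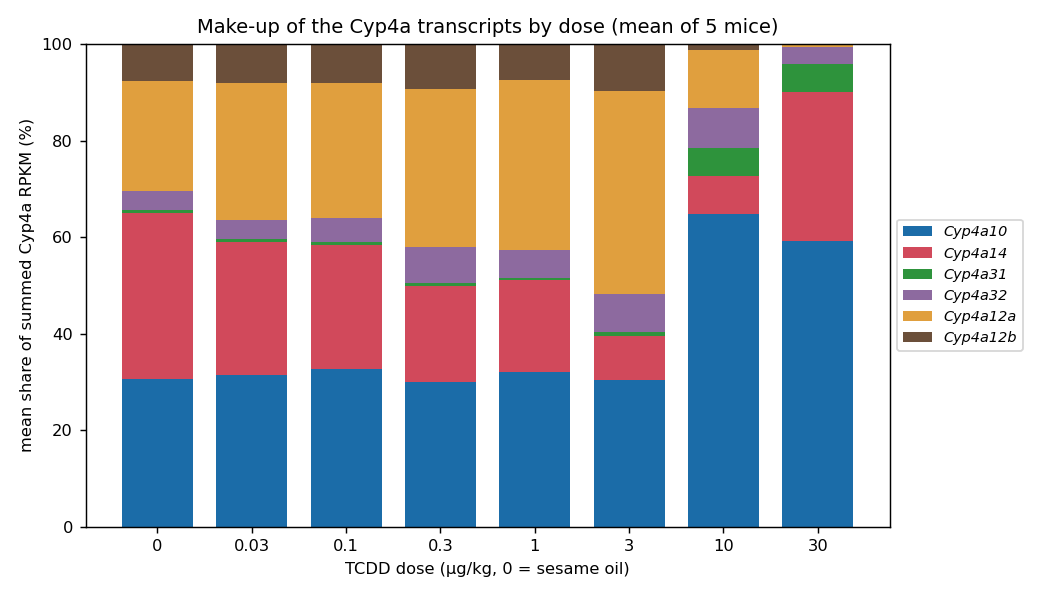
Mean share of each member in the summed Cyp4a RPKM (vertical, percent, 5 mice per bar) by TCDD dose in μg/kg (horizontal, 0 is sesame oil). Cyp4a12a grew from 22.7% in vehicle to 42.0% at 3 μg/kg and was at 0.460% at 30 μg/kg, while Cyp4a10 went from 30.3% at 3 μg/kg to 64.8% at 10 μg/kg.

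Ratios of 2 members within a library need no scaling between libraries, and 5 of them were compared with vehicle at 7 doses by exact 2-sided permutation of the log2 ratio (counts + 1), with p-values adjusted over the 35 comparisons. In 7 of these, the exact p was the smallest possible, 0.0079, for an adjusted p = 0.040. Cyp4a14 fell against Cyp4a10, with log2 differences of -0.97, -2.18 and -3.22 at the 1, 3 and 10 μg/kg doses. At 30 μg/kg the difference of this ratio did not pass (-1.28, exact p = 0.063, adjusted p = 0.17). In vehicle the geometric mean was 1.31 reads of Cyp4a14 per read of Cyp4a10, and at 10 μg/kg it was 0.141. Cyp4a31 rose against Cyp4a10 by 2.26 at 10 μg/kg and 2.47 at 30 μg/kg, from 0.0209 reads per read of Cyp4a10 in vehicle to 0.116 at 30 μg/kg. At 3 μg/kg this difference was 0.92 (exact p = 0.016, adjusted p = 0.062). For Cyp4a12a against Cyp4a10 the difference was -7.61 at 30 μg/kg, and for Cyp4a12b against Cyp4a12a it was -0.60 at 1 μg/kg. The ratio of Cyp4a12b to Cyp4a12a did not pass at 3 μg/kg (-0.40, exact p = 0.10, adjusted p = 0.23). Nor did it at 10 μg/kg (-1.16, exact p = 0.16, adjusted p = 0.29). Between mice at 30 μg/kg the log2 ratio of Cyp4a12b to Cyp4a12a ranged from -3.07 to 1.82, and the difference from vehicle did not pass (1.81, exact p = 0.13, adjusted p = 0.25). Cyp4a32 against Cyp4a10 differed by -1.29 at 30 μg/kg (exact p = 0.016, adjusted p = 0.062).

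**Figure D4:**
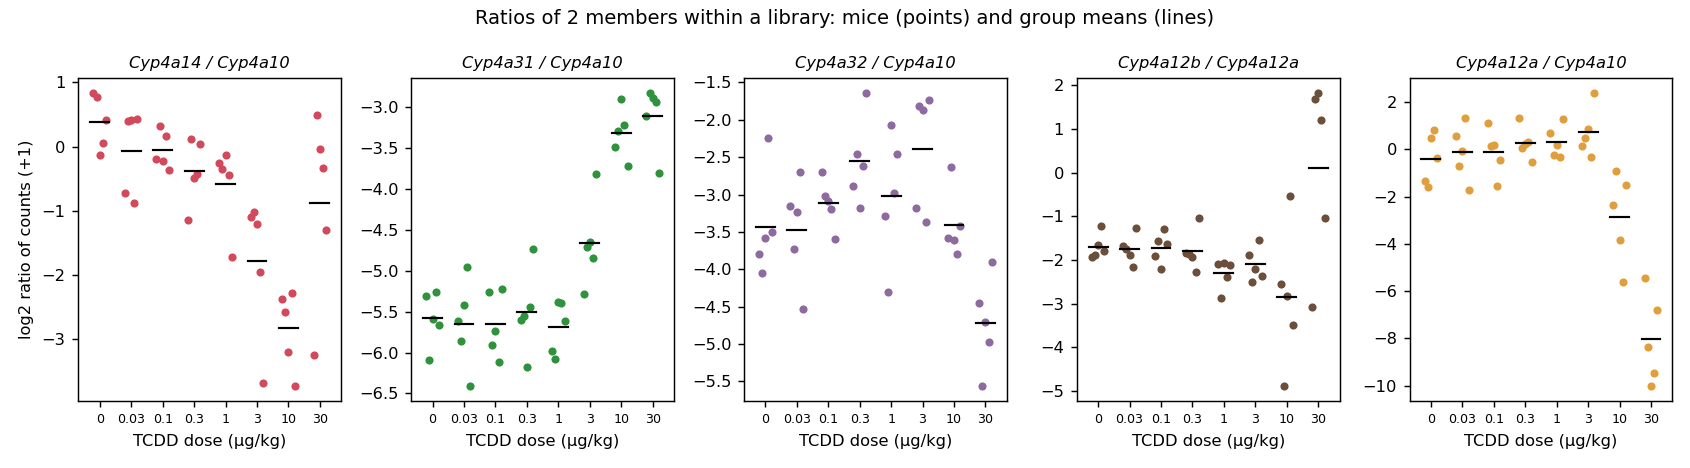
Log2 ratio of the counts of 2 members within a library (vertical) by TCDD dose in μg/kg (horizontal), with 1 point per mouse and a line at the mean of 5 mice. The ratio of Cyp4a14 to Cyp4a10 fell to a mean of -2.83 at 10 μg/kg, that of Cyp4a31 to Cyp4a10 rose from -5.58 in vehicle to -3.11 at 30 μg/kg, and that of Cyp4a12b to Cyp4a12a scattered from -3.07 to 1.82 at 30 μg/kg.

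Sample titles carry numbers that fall into 2 runs, up to 27 and from 28, with 19 and 21 libraries, which the labels do not explain. All 7 passing ratios kept their sign within each run. In these runs the ratio of Cyp4a14 to Cyp4a10 at 10 μg/kg differed from vehicle by -2.96 and -3.30 on the log2 scale, and that of Cyp4a31 to Cyp4a10 by 2.27 and 2.19. An adjusted p of 0.040 rests on 7 comparisons tied at the smallest p. Without replicate 2 of the 1 μg/kg group only 5 were left there, and the smallest exact adjusted p rose to 0.056.

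Mice of the same dose also differed in the members in an ordered way. After the mean of each dose was subtracted from log2 CPM, 21 relations over the 40 mice were tested by permutation within dose (100000 resamples), 15 between members and 6 with the mean of 24 PPARα target genes, and 8 passed. Cyp4a10 and Cyp4a14 varied together (r = 0.89, Spearman's rho = 0.87, permutation p = 1e-05 each, the smallest the resamples can give, adjusted p = 7e-05). Without the 2 mice farthest from the median of Cyp4a10 the coefficient was 0.84, and within the 2 title-number runs it was 0.94 (permutation adjusted p = 0.0061) and 0.94 (0.00074). Cyp4a12a varied against both, with r = -0.61 and rho = -0.64 for Cyp4a10 (permutation adjusted p = 0.000175 and 0.00018) and r = -0.61 and rho = -0.68 for Cyp4a14 (permutation adjusted p = 7e-05 each). These relations were -0.59 and -0.61 without the 2 farthest mice. Cyp4a31 varied with Cyp4a10 (r = 0.69, rho = 0.69, permutation adjusted p = 7e-05 and 8.4e-05), with Cyp4a14 (r = 0.69, rho = 0.71, 8.4e-05 and 0.00011) and against Cyp4a12a (r = -0.74, rho = -0.76, 0.00047 and 7e-05). Without the 2 mice farthest on the x axis these were 0.62, 0.62 and -0.68. Cyp4a31 values could hold misplaced Cyp4a10 reads, and the part of such reads in these relations was not tested. The mean of the PPARα targets varied with Cyp4a14 (r = 0.75, rho = 0.70, permutation adjusted p = 8.4e-05 each) and with Cyp4a10 (r = 0.64, rho = 0.60, 0.00027 and 0.00063), at 0.64 and 0.50 without the 2 farthest mice.

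Within the runs, the relation of Cyp4a10 with Cyp4a14 passed in both. In the first run, of 19 mice, it was the only one to pass, and in the second, of 21 mice, 7 of the relations passed. The coefficients of Cyp4a14 with Cyp4a12a were -0.71 and -0.78 in the runs (permutation adjusted p = 0.094 and 0.00074), those of Cyp4a10 with Cyp4a12a -0.62 and -0.63 (0.25 and 0.0083), and those of Cyp4a12a with Cyp4a31 -0.65 and -0.78 (0.28 and 0.018). Cyp4a31 with Cyp4a10 gave 0.81 and 0.47 (0.25 and 0.064), and with Cyp4a14 0.91 and 0.62 (0.25 and 0.020). The PPARα target mean gave 0.70 and 0.64 with Cyp4a10 (0.43 and 0.013) and 0.83 and 0.60 with Cyp4a14 (0.40 and 0.033). Cyp4a12a and Cyp4a12b, alike in sequence, did not pass by Pearson's coefficient (r = 0.18, permutation adjusted p = 0.55) and had rho = 0.42 (permutation adjusted p = 0.049). Without replicate 1 of the 30 μg/kg group, which had the lowest Cyp4a12b of all mice, they had r = 0.43 and rho = 0.57 (permutation adjusted p = 0.065 and 0.0032). Without the whole 30 μg/kg group the pair passed by both coefficients (n = 35, r = 0.49 and rho = 0.65, permutation adjusted p = 0.025 and 0.0013).

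**Figure D5:**
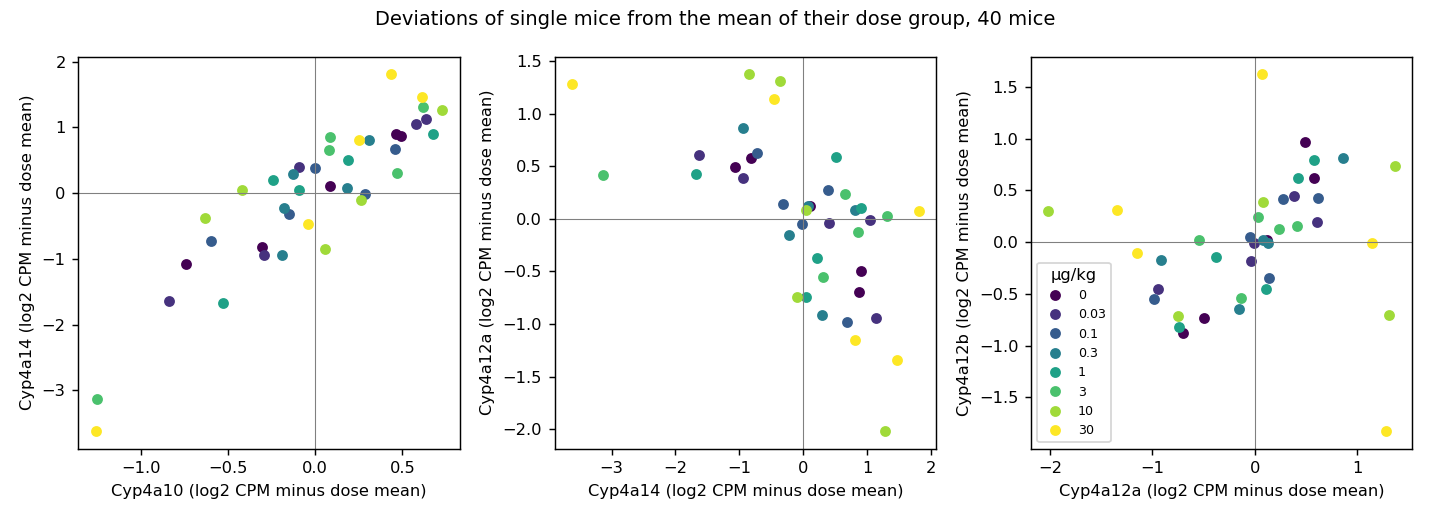
Deviation of each of the 40 mice from the mean log2 CPM of its dose group, for 1 member against another, coloured by TCDD dose in μg/kg. Cyp4a10 and Cyp4a14 lie along a rising line (r = 0.89), Cyp4a14 and Cyp4a12a along a falling one (r = -0.61), and Cyp4a12a and Cyp4a12b have r = 0.18 over all 40 mice and 0.49 over the 35 mice outside the 30 μg/kg group.

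Hepatocyte transcripts also varied among the 5 mice at 30 μg/kg. The summed level of 6 hepatocyte markers (Alb, Ttr, Apoa1, Apob, Cps1 and Serpina1c, all called lower at 30 μg/kg) was 59642, 29531, 28647, 38917 and 46632 CPM in replicates 1 to 5, against 98223 to 119470 CPM in vehicle. Of these markers 3 were called lower at 3 μg/kg and 5 at 10 μg/kg, where the sums were 70260 to 94506 and 62035 to 98858 CPM. Of all genes, 2.22%, 8.13% and 18.9% were called lower at 3, 10 and 30 μg/kg. Replicate 1 had the highest sum of its group and the lowest Cyp4a10, Cyp4a14, Cyp4a31 and Cyp4a32, and replicate 3 the lowest sum and the highest Cyp4a10 and Cyp4a31. Cyp4a32 was highest in replicate 5, which had the next highest sum after replicate 1. Cyp4a12a ran the other way, highest in replicate 1 at 9.30 CPM and lowest in replicate 3 at 1.41 CPM. Its copy Cyp4a12b did not follow it, lowest in replicate 1 at 1.06 CPM and highest in replicate 2 at 12.7 CPM. Cyp1a1, the classic AhR target, lay between 4749.9 and 6375.6 CPM in all 5 mice and between 0.979 and 2.33 CPM in vehicle. Without replicate 1, Cyp4a14 at 30 μg/kg read 0.72 on the log2 scale and was still not called. Markers of other cells rose at 30 μg/kg, where 23.2% of all genes were called higher and 18.9% lower. Of 7 macrophage markers 7 were called higher (summed 354 to 998 CPM, vehicle 98.1 to 134), of 7 stellate cell and fibroblast markers 6 (613 to 1395 CPM, vehicle 172 to 290.3) and of 6 lymphocyte markers 5 (4.74 to 11.3 CPM, vehicle 2.85 to 5.11). Of 5 endothelial markers 3 were higher (191 to 254 CPM, vehicle 116 to 159.6), or 5 with total-count scaling. Of 5 cholangiocyte markers 4 were higher and 1 lower (67.5 to 333 CPM, vehicle 37.2 to 48.4), or 4 and 0 with total-count scaling. At 10 μg/kg, 7 macrophage, 4 stellate cell and fibroblast, 4 endothelial, 2 lymphocyte and 0 cholangiocyte markers were called higher and 0 lower. Of all genes, 13.6% were called higher there and 8.13% lower. At 1 and 3 μg/kg, 2 and 4 macrophage markers were called higher, against 2.15% and 4.53% of all genes. At 3 μg/kg 2 stellate cell and fibroblast markers were also higher. The part of these markers in the changes of the members was not tested.

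The genes most like each member over the 40 libraries were named as a description, with the 3 highest Pearson coefficients of log2 CPM, which mix the effect of dose with differences among mice. For Cyp4a12a they were Hao1 (r = 0.96), Elovl3 (r = 0.96) and Slc17a3 (r = 0.96), and for Cyp4a12b Hsd3b5 (r = 0.94), Serpina4-ps1 (r = 0.94) and Serpina12 (r = 0.93). For Cyp4a14 they were Acadl (r = 0.88), the long-chain acyl-CoA dehydrogenase, Hsdl2 (r = 0.83) and Ugp2 (r = 0.82). For Cyp4a10 they were Cyp39a1 (r = 0.83), Stx12 (r = 0.82) and Ppp1r2 (r = 0.81). Cyp4a31 was nearest to Cd63 (r = 0.94), Ivl (r = 0.94) and Lum (r = 0.94). No gene came near Cyp4a32, with Zc3h6 (r = 0.57), Klf11 (r = 0.57) and Mcl1 (r = 0.56) the highest.

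PPARα target genes, which exclude the members, changed in both directions. At 30 μg/kg 10 of 24 were called higher, 6 lower and 8 neither, against 23.2% of all tested genes higher and 18.9% lower. The median log2 fold change of the 24 was 0.25, beside 0.03 for all genes. The largest changes were in Fgf21 (log2 6.61 ± 0.64 SE, edgeR adjusted p = 3.6e-11), a fasting hormone, in the fatty acid transporter Cd36 (3.89 ± 0.28, 1.4e-14), in Pdk4 (3.85 ± 0.54, 1.4e-07), which restrains glucose oxidation, and in the mitochondrial acyl-CoA thioesterase Acot2 (3.72 ± 0.35, 1.6e-11). In the 10 μg/kg group 6 were called higher and 5 lower, against 13.6% and 8.13% of all genes. In the 3 μg/kg group 2 and 1 were called, against 4.53% and 2.22%. With total-count scaling, which moved the median of all genes at 30 μg/kg to 0.52 and the calls over all genes from 3567 higher and 2909 lower to 6402 and 1559, the counts of PPARα targets were 11 higher and 3 lower. At 10 μg/kg that scaling moved the median of all genes to 0.22. Ppara itself was lower at 30 μg/kg, at 18.6 ± 9.15 CPM against 67.8 ± 9.86 in vehicle (log2 -1.87 ± 0.21 SE, edgeR adjusted p = 1.1e-09).

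Of the 6 genes for PPARα, its partners and electron supply, 1 was called higher and 2 lower at 30 μg/kg (2 and 2 with total-count scaling). At this dose 23.2% of all genes were called higher and 18.9% lower. Por, which feeds electrons to the P450s, rose to 909 ± 303 CPM from 217 ± 48.5 (log2 2.07 ± 0.19 SE, edgeR adjusted p = 6.2e-12). Cyb5r3, the cytochrome b5 reductase, fell with Ppara (log2 -1.77 ± 0.16 SE, edgeR adjusted p = 4.0e-12). Of 12 genes of the route through dicarboxylic acids, 2 were called higher and 4 lower, against 23.2% and 18.9% of all genes. With total-count scaling 2 and 2 of the 12 were called. Their median log2 fold change was -0.40. Acot4, a peroxisomal thioesterase acting on succinyl-CoA and dicarboxylyl-CoAs, rose (log2 2.17 ± 0.20 SE, edgeR adjusted p = 1.6e-11), as did the bifunctional peroxisomal enzyme Ehhadh (1.55 ± 0.28, 9.5e-06). The long-chain acyl-CoA synthetase Acsl1 fell (-1.79, 9.9e-16). Ehhadh and Acot4 were also counted among the PPARα targets.

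Among the other Cyp4 genes, 10 of 16 passed the filter, and 2 were called higher and 5 lower at 30 μg/kg (2 and 4 with total-count scaling). At this dose 23.2% of all genes were called higher and 18.9% lower. Cyp4f14, the main leukotriene ω-hydroxylase of mouse liver, fell from 394 ± 18.4 CPM to 17.8 ± 29.7 (log2 -4.48 ± 0.54 SE, edgeR adjusted p = 6.2e-09), and Cyp4f15 fell from 189.9 ± 24.0 to 43.5 ± 26.3 (-2.13 ± 0.19, 8.3e-12). Cyp4f18, known from leukocytes, rose from 0.320 ± 0.232 to 3.71 ± 1.55 CPM (3.52 ± 0.58, 2.6e-06) and Cyp4f16 from 1.70 ± 0.517 to 11.6 ± 2.33 (2.76 ± 0.24, 2.1e-12). Cyp4a29 and Cyp4a30b, in the same cluster as the members, had 0 reads in all 40 libraries. In 1 library alone 0 reads would allow up to 3, and 40 such libraries set a tighter limit.

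Cyp4a12a and Cyp4a12b were set beside other genes whose liver level depends on sex. The lists of these genes were chosen with earlier results of these data known. Of 12 male-biased genes 12 were called lower at 30 μg/kg, with a median log2 fold change of -4.47, and 7 were lower at 10 μg/kg. Of all genes, 18.9% and 8.13% were called lower at these doses. Of Hsd3b5, a male-specific steroid dehydrogenase at 239 ± 61.4 CPM in vehicle, 7, 1, 0, 0 and 0 reads were left in the 5 mice (edgeR adjusted p = 1.5e-13), too few for a fold. Elovl3, a fatty acid elongase, fell by 9.95 on the log2 scale (edgeR adjusted p = 8.8e-17), Serpina1e by 8.45 (2.6e-09) and Selenbp2 by 5.44 (1.2e-06). Of 12 female-biased genes, 8 passed the filter. At 30 μg/kg 6 of these were called higher and at 10 μg/kg 5, against 23.2% and 13.6% of all genes. Cyp2a4 rose from 4.06 ± 6.00 to 1621.6 ± 866 CPM (log2 8.62 ± 0.96 SE, edgeR adjusted p = 1.0e-09). Sult2a1 had 0 reads in every vehicle library and was at least 61.9-fold higher at 30 μg/kg, against a floor of 3 reads per library. Cyp2b13 rose by 6.13 on the log2 scale (edgeR adjusted p = 2.5e-09). No male-biased or growth hormone signalling gene was called at 3 μg/kg, where 2 of the 8 female-biased genes were called higher. At that dose 4.53% of all genes were called higher and 2.22% lower.

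Of 9 genes of growth hormone signalling, 6 were called lower at 30 μg/kg (5 with total-count scaling) and 1 at 10 μg/kg. Of all genes, 18.9% and 8.13% were called lower at these doses. The receptor Ghr fell (log2 -2.33 ± 0.19 SE, edgeR adjusted p = 8.2e-13), as did the transcription factors Onecut1 (-3.05, 0.00091) and Bcl6 (-2.14, 0.016) and the target gene Igf1 (-1.60, 1.2e-06). Stat5b, through which growth hormone acts on male-biased genes, fell by 0.88 with TMM scaling (edgeR adjusted p = 2.6e-06). Total-count scaling moved the median log2 fold change of all genes at 30 μg/kg from 0.03 to 0.52. Hnf4a, a hepatocyte transcription factor, had a log2 difference of -0.36 (edgeR adjusted p = 0.012), under the fold threshold, and 0.12 with total-count scaling. Without replicate 1 of the 30 μg/kg group the log2 changes of some genes were larger. They were -6.42 for Cyp4f14, -11.24 for Elovl3, -9.90 for Serpina1e, -6.96 for Selenbp2, -3.99 for Onecut1 and -3.12 for Bcl6. Replicate 1 had more reads of each of these genes than any other mouse of its group. Of Cyp4f14 it had 1523 reads, against 55 to 264 in the others.

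AhR target genes, as a check of exposure, were called higher for 6 of 6 at 3, 10 and 30 μg/kg, and for 2 of 6 at 0.03 μg/kg, the lowest dose. Of all genes, 4.53%, 13.6%, 23.2% and 0.0195% were called higher at these doses.

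Sequencing depth was 15.5 to 21.0 M gene counts per library, with a median of 17.5 M. No 2 replicates of a group agreed within sampling noise (lowest chi-square per degree of freedom 11.1 over 80 pairs). The smallest count of a member in any library was 23 reads, for Cyp4a12b at 30 μg/kg. Nothing in the labels says that the mice of a group were housed or dosed apart, and the tests measure the spread between these mice.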

How the data were processed

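Livers of 40 male mice, 5 per dose, were sequenced as paired 150 bp reads. Per the labels, RNA was extracted with TriZOL and libraries were made with an NEB Ultra II kit. The submitters' processing notes name FastQC 0.11.7, Trimmomatic 0.39, STAR 2.7.3a and both GRCm39 and mm10, with no role for either build. The deposited counts are raw unstranded STAR counts of uniquely mapped reads per gene, 1 file per mouse, with 71.3 to 80.8% of reads in genes. Rows of reads without a gene were left out (2.47 to 11.3% unmapped, 5.24 to 7.43% mapped to several places, 3.34 to 7.36% in no gene and 4.84 to 5.90% ambiguous). The authors also deposited a table of log2 values of 23120 genes, which equalled DESeq2's blind variance-stabilizing transformation of the counts within 5.03e-10, and it served only for an alternative fit with limma 3.58.1.

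Genes were tested with edgeR 4.0.16 (R 4.3.3): filterByExpr (minimum count 10, minimum total 15), TMM scaling and a quasi-likelihood fit with 1 mean per dose over all 40 libraries. A call needed a Benjamini-Hochberg adjusted p under 0.05 and a fold of at least 1.5. Log2 CPM used a prior count of 2 and ratios a pseudocount of 1. DESeq2 1.42.0, total-count scaling, other filters, covariates, title-number runs and leaving out each mouse were alternatives. Python 3.11.15 with NumPy 2.4.6, SciPy 1.17.1 and pandas 2.3.3 ran the permutation tests. The fits were tested on simulated data. Symbols, lengths and transcript and coding sequences came from GENCODE M21 (52083 of 55359 identifiers had a symbol), and the promoter window from RefSeq. The gene Tf had no match.

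Named genes were the 6 members, the 3 genes most like each, and in each list at most the 4 called genes with the largest changes at 30 μg/kg, plus Ppara, Por, Stat5b and Hnf4a. Some genes of the lists are not reported here by name. Lists were other Cyp4 genes, PPARα targets, receptor and electron supply, the dicarboxylic acid route, male-biased and female-biased genes, growth hormone signalling, AhR targets, and markers of hepatocytes, macrophages, endothelial cells, stellate cells, cholangiocytes and lymphocytes. The members and lists were chosen with earlier results of these data known.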

Additional observations from a re-analysis of the deposited data

Results flagged for a closer look

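In 4 of 48 groups of 5 mice, 1 mouse stood apart, with a gap to the nearest mouse of more than 0.71 of the group's range, and chance alone gives about 1 in 20 such groups. At 3 μg/kg replicate 5 had the lowest Cyp4a10, at 6.41 log2 CPM with the others between 7.74 and 8.28, and also the lowest Cyp4a14, at 2.75 log2 CPM with the others between 6.18 and 7.19. At the same dose replicate 2 had 5.72 log2 CPM of Cyp4a12b, with the others between 6.28 and 6.50. At 0.1 μg/kg replicate 5 had 3.69 log2 CPM of Cyp4a31, above the others at 2.73 to 2.98.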

How the results depend on the processing

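No paired analysis was possible because the labels give no replicate numbers, and the numbers used here, in accession order, pair no mice. Of the counts that answer a comparison, 227 equalled the count reported, 28 differed from it by at most 1.5 times and 9 by more. Among the 28, members called at 10 and at 30 μg/kg were 3 in the first title-number run, members with a dose trend were 4 with total-count scaling and with log10 dose, ratios were 6 or 8 with 1 mouse left out, and relations within dose were 9 with total-count scaling and 10 without the 30 μg/kg group. Of single genes, 9 calls were lost under an alternative, of Cyp4a10 and Cyp4a14 at 3 μg/kg, Cyp4a31 at 10 μg/kg and Cyp4a10 at 30 μg/kg. At 1 μg/kg 1 member (Cyp4a14) was called with only vehicle and that dose in the fit. At 3 μg/kg 0 members were called in either title-number run alone, and 1 without vehicle replicate 1, vehicle replicate 2 or replicate 5 of the dose (1 to 2 over all mice left out). Leaving out 1 mouse gave 0 to 8 differing ratios, with 0 without replicate 2 of the 1 μg/kg group. Relations within dose numbered 1 in the first run alone, a choice made after seeing the data, and 5 endothelial markers were called with total-count scaling. At 10 and 30 μg/kg 4 members were called whichever mouse was left out. Signs turned for differences that were not called: Cyp4a10 at 10 μg/kg was 0.31 in the second run, and Cyp4a14 at 30 μg/kg was -0.17 by limma on the deposited log2 values, also added after seeing the data, and -0.0224 to 0.72 with 1 mouse left out (-0.0224 without replicate 2 of the dose). Cyp4a32 at 30 μg/kg was 0.41 with total-count scaling, 0.0227 in the second run, and -0.32 to 0.0944 with 1 mouse left out, being 0.0944 and 0.0028 without replicates 1 and 2 of the dose and 0.0386 without vehicle replicate 4. Why calls were lost or signs turned was not tested. Depth limits Cyp4a12a and Cyp4a12b at 30 μg/kg, with as few as 37 and 23 reads per library.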
